A study of Arabidopsis thaliana with 18 samples.

Results

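The 10 photoreceptor genes of Arabidopsis thaliana described here were taken by locus from a deposited table of 27655 genes. They are the phytochromes PHYA (AT1G09570), PHYB (AT2G18790), PHYC (AT5G35840), PHYD (AT4G16250) and PHYE (AT4G18130), the cryptochromes CRY1 (AT4G08920) and CRY2 (AT1G04400), the phototropins PHOT1 (AT3G45780) and PHOT2 (AT5G58140), and the UV-B receptor UVR8 (AT5G63860). All 10 were in the table, and all 10 passed the filter on low values, at least 1 TPM (a transcript level corrected for gene length and scaled to a sum of 1000000 per library) in at least 3 libraries, which 20048 genes passed.

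Transcript levels had been measured by RNA-seq of total RNA from whole 7-day-old seedlings raised in short days at 21 or 27 °C. Wild-type plants (Col) were set beside a line with knocked-down histone variant H3.3 (h3.3kd) and beside elf7-3, which carries a mutation in ELF7, a gene of the Paf1 complex found on elongating RNA polymerase. The 18 libraries fall into 6 groups of 3, 1 group per genotype and temperature. The series concerns the eviction of H2A.Z and the deposition of H3.3 in thermomorphogenesis, the way seedlings elongate when it is warm. How h3.3kd was made, the time of day of harvest, and whether replicates were grown apart are not given in the sources used here, so p-values measure the spread between these libraries only, which may be technical.

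Phytochromes are red and far-red receptors that switch between an inactive and an active form. PHYB also reverts to the inactive form faster in the warm and is known as a temperature sensor, whereas PHYA accumulates in darkness and is broken down in light. Cryptochromes and phototropins absorb blue light: the former act on gene expression and growth, the latter are membrane-bound kinases that steer bending towards light, chloroplast movement and stomatal opening. UVR8 is a dimer that falls apart in UV-B and then binds the ubiquitin ligase COP1.

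The low values of the table implied 6.72e+06 to 1.10e+07 reads per library, an approximate figure, because only 30.1 to 32.7% of low values became whole reads with the exon lengths at hand. At 21 °C the H3.3 gene HTR8 averaged 343 ± 12.7 TPM (SD of 3 libraries) in Col and 18.8 ± 1.73 TPM in h3.3kd. Of the other H3.3 genes, HTR4 averaged 427 ± 3.13 TPM in Col against 44.7 ± 0.887 TPM in h3.3kd, and HTR5, which kept the most, 601 ± 10.1 TPM against 270 ± 9.67 TPM. ELF7 averaged 29.2 ± 1.72 TPM in Col and 9.04 ± 0.473 TPM in elf7-3 at the same temperature. Together HTR4, HTR5, HTR8 and ELF7 summed to 1375 to 1416.5 TPM in cool Col and 993.8 to 1057.6 TPM in warm Col. In h3.3kd these sums were 353.41 to 375.63 TPM in the cool and 358.83 to 385.95 TPM in the warm, so the gap to Col was narrower at 27 °C. One library stood apart: organelle-encoded genes took 3.66% of TPM in the first warm replicate of h3.3kd, and 0.128 to 0.343% in the other 17. Without that library, 7 of the 10 photoreceptor genes in place of 9 passed the test for warmth in h3.3kd, and 8 in place of 9 for h3.3kd against Col at 27 °C. Counts over all genes fell too. For warmth they went from 5240 higher and 3952 lower to 5024 and 3221. For h3.3kd against Col at 27 °C they went from 4051 and 6333 to 3910 and 5408. Whether the organelle share had a part in this was not tested. The markers of green tissue (RBCS1A, CAB3, GUN5 and RCA) were present in every library, as the label of whole seedlings implies.

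On TAIR10.1 the phytochrome genes lie apart from each other: PHYA at chr1:3095160-3100819 on the minus strand, PHYB at chr2:8139756-8144461 on the plus strand, PHYC at chr5:14007812-14011848 on the plus strand, PHYD at chr4:9195247-9199840 and PHYE at chr4:10042137-10046346, both on the minus strand. CRY1 lies at chr4:5723651-5727268 (plus) and CRY2 at chr1:1185512-1188696 (minus). PHOT1 lies at chr3:16816721-16824210 (plus), PHOT2 at chr5:23523825-23533111 (plus) and UVR8 at chr5:25554416-25559499 (minus). PHYE shares 60 bases with SSP4b on the same strand, a gene at 13.2 to 31.2 TPM, and PHOT2 shares 2760 bases with AT5G58150 on the opposite strand, which is listed at 0 in every library. Whether the authors' counting used strand is not stated.

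PHYB and PHYD are the closest pair, with 80% identical bases over 3458 aligned coding bases. The other phytochrome pairs had 59.3 to 64.8%, CRY1 and CRY2 62.7%, and PHOT1 and PHOT2 64.5%. The longest coding run that PHYB and PHYD share exactly is the following 43 bases, which lie at chr2:8142024-8142066 (plus) in PHYB and chr4:9197487-9197529 (minus) in PHYD. It is shown because a read inside it could come from either gene:
PHYB and PHYD: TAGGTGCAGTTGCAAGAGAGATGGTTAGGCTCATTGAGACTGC
No pair within a receptor family shares a coding run of 50 bases. Reads longer than the run, whose length is not given in the sources used here, would tell the pair apart.

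The 250 bases before the annotated start are shown for PHYA, the member with the widest warmth response in Col, and for PHYB and PHYD, which hold a G-box, the hexamer CACGTG bound by light- and warmth-signalling bHLH and bZIP factors. Sequences are from RefSeq's TAIR10.1, 5′ to 3′ on the gene's strand, at chr1:3100820-3101069, chr2:8139506-8139755 and chr4:9199841-9200090, with G-boxes in capitals:
PHYA: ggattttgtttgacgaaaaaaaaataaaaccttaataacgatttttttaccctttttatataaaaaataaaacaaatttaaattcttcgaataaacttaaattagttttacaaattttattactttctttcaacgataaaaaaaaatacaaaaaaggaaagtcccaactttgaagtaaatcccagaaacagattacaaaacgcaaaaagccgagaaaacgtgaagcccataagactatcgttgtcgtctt
PHYB: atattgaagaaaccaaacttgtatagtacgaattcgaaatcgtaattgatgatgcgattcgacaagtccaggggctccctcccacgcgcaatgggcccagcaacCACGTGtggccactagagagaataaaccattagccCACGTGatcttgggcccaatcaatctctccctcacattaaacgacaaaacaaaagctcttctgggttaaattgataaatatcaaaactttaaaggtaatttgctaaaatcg
PHYD: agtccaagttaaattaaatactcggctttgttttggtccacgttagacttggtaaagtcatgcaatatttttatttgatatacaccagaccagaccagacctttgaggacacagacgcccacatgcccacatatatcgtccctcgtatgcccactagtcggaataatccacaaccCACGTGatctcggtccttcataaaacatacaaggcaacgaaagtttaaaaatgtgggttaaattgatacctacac
PHYB has 2 G-boxes, at -146 to -141 and -111 to -106 from the start, and PHYD has 1, at -75 to -70. In windows from 250 bases before to 50 bases after the start, read on both strands, CACGTG was in 7.68% of 27443 promoters, and among the 10 genes in those of PHYB and PHYD. The evening element AAAATATCT, in 2.82% of promoters and the ABRE core ACGTGTC, in 4.33%, had 0 matches among the 10. The CCA1-binding site AAAAATCT, in 7.88%, matched UVR8 at +10 to +17. PHYA had a match to none of these 4 motifs in its window, and such matches are descriptions of letters, not of bound sites.

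CRY2 had the highest mean level of the 10 genes in every group but Col at 27 °C, where PHYA was highest, and PHYD had the lowest in all 6 groups. In Col at 21 °C the order was CRY2 (143 ± 5.30 TPM), CRY1 (113 ± 4.52), PHYA (105 ± 5.48), PHOT1 (84.4 ± 2.46), UVR8 (81.3 ± 1.22), PHOT2 (59.6 ± 4.40), PHYB (43.6 ± 0.314), PHYC (36.2 ± 1.55), PHYE (29.4 ± 1.17) and PHYD (14.9 ± 1.62; SD, n = 3 throughout). The libraries of CRY1 and PHYA overlapped there, as did those of PHOT1 and UVR8, while every other neighbouring pair was separate. Averaged over the 18 libraries, CRY2 stood at percentile 94.8 of the 20048 genes kept and PHYD at percentile 45.6. The SD between replicates was 0.0911 to 10.8% of the group mean, with a median of 4.70%, over the 60 combinations of gene and group. By estimated reads, between 245 (PHYD) and 6496 (PHYA) reads per library stood behind a value, and intervals from counts were not computed because these are estimates.

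In Col at 27 °C the order became PHYA (223 ± 13.7 TPM), CRY2 (167 ± 2.38), CRY1 (167 ± 3.65), PHOT1 (156 ± 5.26), UVR8 (117 ± 5.91), PHOT2 (77.1 ± 3.36), PHYC (57.4 ± 2.19), PHYB (52.5 ± 0.0479), PHYE (30.1 ± 0.255) and PHYD (13.3 ± 1.25). The libraries of CRY2 and CRY1 overlapped and no other neighbours did. PHYC had thus passed PHYB. In elf7-3 at 27 °C PHYC was also above PHYB (49.2 ± 1.13 against 40.1 ± 1.87 TPM), whereas in h3.3kd at 27 °C the libraries of PHYB (44.6 ± 3.51) and PHYC (39.5 ± 2.76) overlapped. In the mutants the neighbours whose libraries overlapped were, besides that pair, UVR8 and PHOT1 in h3.3kd at 21 °C, and in elf7-3 at 27 °C CRY2 and CRY1, PHYA and PHOT1, and PHOT1 and UVR8.

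**Figure D1:**
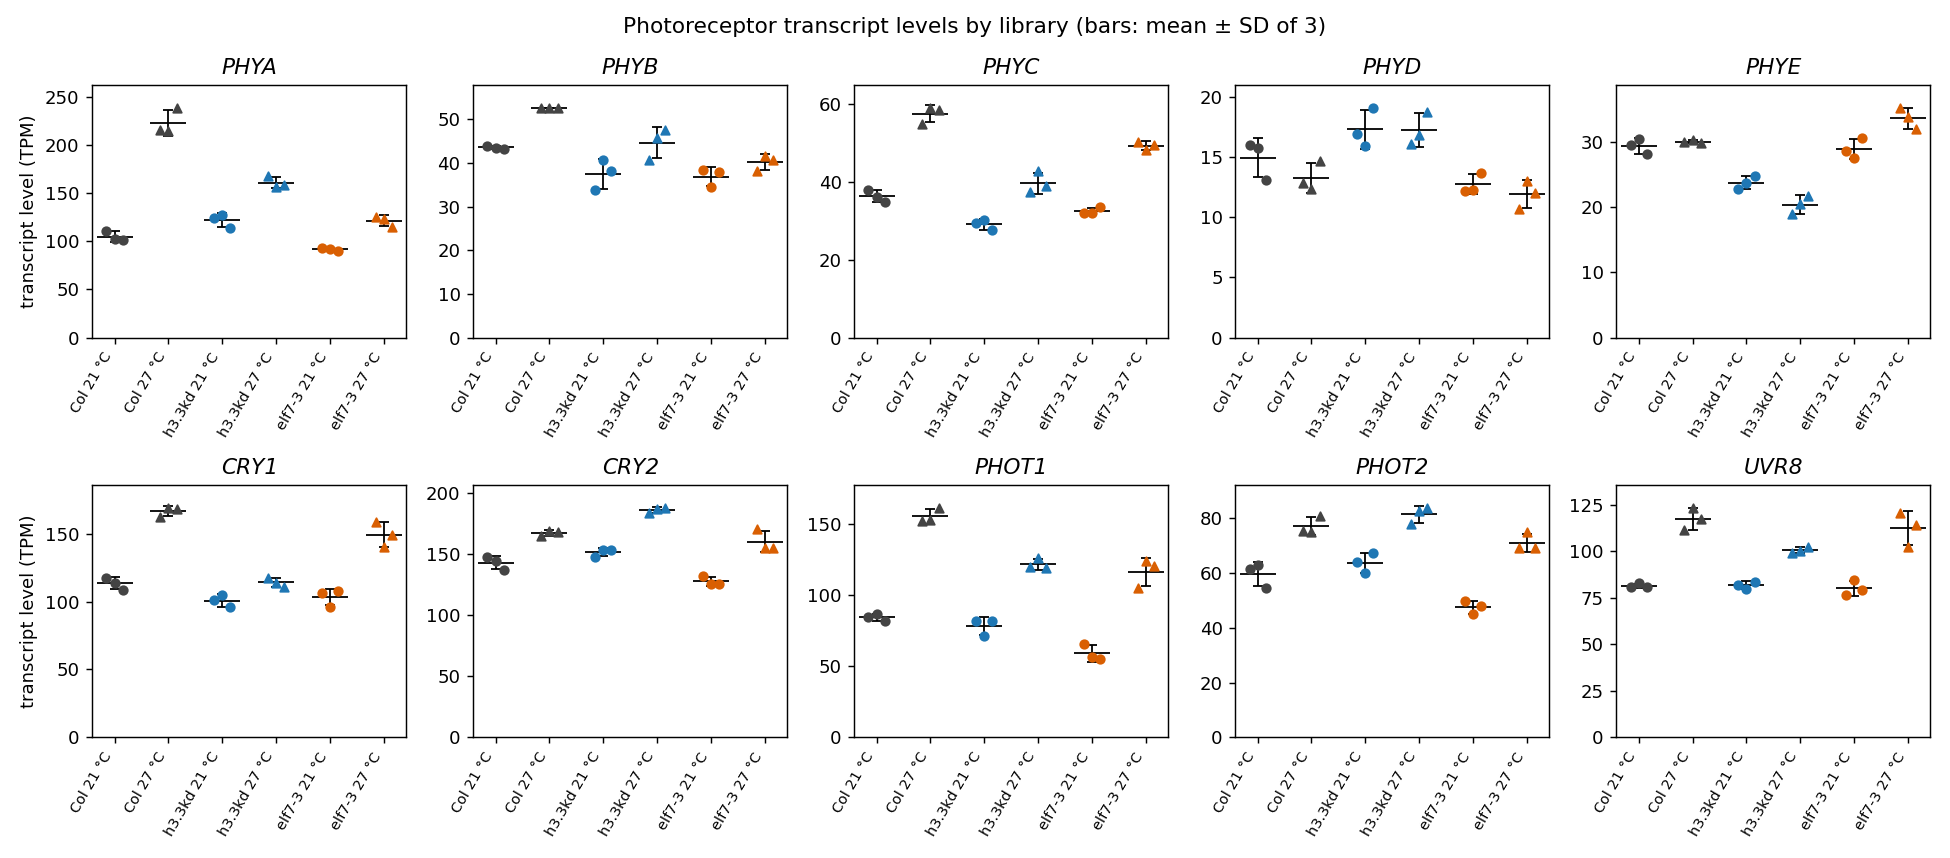
Transcript level in TPM (vertical axes, each starting at 0) of the 10 photoreceptor genes in every library, with circles for 21 °C, triangles for 27 °C, grey for Col, blue for h3.3kd and orange for elf7-3, and black bars for the mean ± SD of 3 libraries. PHYA in Col lies between 101 and 111 TPM at 21 °C and between 215 and 239 TPM at 27 °C, and its warm Col libraries are above every mutant library.

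In Col, warmth raised 8 of the 10 genes and lowered none. The largest rises were those of PHYA, PHOT1 and PHYC, and the 2 genes that did not pass the test were PHYD and PHYE. A gene was called where limma's moderated test on log2(TPM + 1) gave a Benjamini-Hochberg adjusted p under 0.05 over all 20048 genes. By this rule 32.9% of all genes were called higher in warm Col and 22.1% lower, and the median log2 fold change was 0.44 over the 10 genes against 0.08 over all genes. With median-of-ratios scaling, which sets the typical gene rather than the sum equal between libraries, the 8 rises were called again, and the split of all genes became 5474 higher and 5396 lower. The libraries of 8 of the 10 genes did not overlap between temperatures, against 62.3% of all genes. In whole seedlings a lower value may come from fewer cells of a type or from less RNA per cell, and these cannot be told apart.

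PHYA, the receptor for very weak and far-red light, stood at 111, 102 and 101 TPM in the 3 Col libraries at 21 °C and at 215, 215 and 239 TPM at 27 °C. The warm libraries were all above the cool ones, and the log2 fold change was 1.08 ± 0.057 (SE; limma adjusted p = 1.20e-10), at percentile 96.2 of all genes. In h3.3kd PHYA was at 124, 128 and 114 TPM at 21 °C and at 167, 156 and 159 TPM at 27 °C (0.40 ± 0.057). In elf7-3 it was at 93.4, 91.8 and 89.9 TPM at 21 °C and at 126, 123 and 115 TPM at 27 °C (0.40 ± 0.057). PHYA therefore passed the test with warmth in all 3 genotypes, and no library of either mutant at 27 °C reached the lowest Col library at 27 °C.

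PHYC, a phytochrome that is stable only in complexes with PHYB or PHYD, stood at 34.8 to 37.9 TPM in cool and 54.9 to 58.9 TPM in warm Col. It rose by a log2 fold change of 0.65 ± 0.058 in Col, 0.43 ± 0.058 in h3.3kd and 0.58 ± 0.058 in elf7-3, and its warm libraries were above its cool ones in each genotype. PHYB, the main red-light receptor of seedlings, was at 43.9, 43.5 and 43.3 TPM in cool and 52.5, 52.5 and 52.6 TPM in warm Col (0.27 ± 0.069). Its rise in h3.3kd was 0.25 ± 0.069, a call that was lost without replicate 1 of h3.3kd at 21 °C (adjusted p = 0.0556) and with only the groups compared in the fit (0.053). In elf7-3 PHYB was at 38.3, 34.5 and 37.9 TPM in the cool and 38.1, 41.7 and 40.7 TPM in the warm, groups that overlapped (0.12 ± 0.069, adjusted p = 0.164).

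PHYD and PHYE, which overlap with PHYB in shade avoidance and flowering, differed from the other phytochromes in not being called with warmth in Col. PHYD was at 16.0, 15.7 and 13.1 TPM in cool and 12.8, 12.3 and 14.7 TPM in warm Col, overlapping groups, with log2 fold changes of -0.16 ± 0.10 in Col, -0.00 ± 0.10 in h3.3kd and -0.09 ± 0.10 in elf7-3. PHYE was at 29.5, 30.5 and 28.2 TPM in cool and 29.9, 30.3 and 29.9 TPM in warm Col (0.03 ± 0.064). By value it went in opposite directions in the mutants, whose responses were not tested against each other. In h3.3kd it fell from 22.8, 23.7 and 24.8 to 19.0, 20.5 and 21.8 TPM (-0.21 ± 0.064, adjusted p = 0.0114). In elf7-3 it rose from 28.7, 27.6 and 30.6 to 35.3, 33.8 and 32.0 TPM (0.21 ± 0.064, adjusted p = 0.0105). The cool and warm libraries were separate in both mutants, but the calls rested on few libraries. The fall was lost without replicate 3 at 21 °C (adjusted p = 0.0515) or replicate 1 at 27 °C (0.0666) and with only the groups compared (0.0606). The rise was lost without replicate 2 at 21 °C (0.0502) or replicate 1 at 27 °C (0.0508) and with median-of-ratios scaling (0.0676). Neither response was called as different from that of Col by limma's interaction test. The differences were -0.24 for h3.3kd (adjusted p = 0.0693) and 0.18 for elf7-3 (adjusted p = 0.245).

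CRY1, the blue-light receptor of seedling growth, stood at 118, 114 and 109 TPM in cool and 162, 169 and 168 TPM in warm Col, a log2 fold change of 0.55 ± 0.055. In elf7-3 it rose by 0.53 ± 0.055, from 106, 96.4 and 108 to 158, 140 and 149 TPM. In h3.3kd it was at 101, 105 and 96.2 TPM in the cool and 118, 114 and 111 TPM in the warm (0.18 ± 0.055). That rise was called, with an adjusted p of 0.0129, but not without h3.3kd replicate 3 at 21 °C (0.0639) or replicate 1 at 27 °C (0.0519), nor with median-of-ratios scaling (0.0655). CRY2, a light-labile cryptochrome that promotes flowering in long days, rose less in Col than CRY1 did, from 148, 144 and 137 to 165, 169 and 169 TPM. Its log2 fold changes were 0.23 ± 0.045 in Col, 0.30 ± 0.045 in h3.3kd and 0.32 ± 0.045 in elf7-3, with separate libraries each time.

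PHOT1, the phototropin of high sensitivity, stood at 84.9, 86.6 and 81.8 TPM in cool and 152, 153 and 162 TPM in warm Col (0.88 ± 0.072). It was at 81.9, 71.1 and 82.2 TPM in cool and 120.0, 126 and 119 TPM in warm h3.3kd (0.63 ± 0.072). In elf7-3 it was at 65.9, 56.3 and 55.4 TPM in the cool and 106, 124 and 121 TPM in the warm (0.97 ± 0.072), its widest rise of the 3 genotypes by value. Over the 6 group means PHOT1 had the widest range of the 10 genes, 1.38 on the log2 scale, followed by PHYA with 1.27 and PHYC with 0.96. PHOT2, which takes over in strong blue light, rose by 0.37 ± 0.063 in Col, 0.35 ± 0.063 in h3.3kd and 0.57 ± 0.063 in elf7-3, and UVR8 by 0.52 ± 0.057, 0.29 ± 0.057 and 0.48 ± 0.057. UVR8 libraries lay between 80.6 and 82.8 TPM in cool and between 112 and 123 TPM in warm Col.

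Counted by genotype, warmth raised 8 and lowered 1 of the 10 genes in h3.3kd, where 26.1% of all genes were called higher and 19.7% lower, and the member median was 0.30 against 0.04 over all genes. In elf7-3 it raised 8 and lowered none, where 29.8% were called higher and 18.3% lower, and the median was 0.44 against 0.07. With median-of-ratios scaling the h3.3kd counts became 7 higher, CRY1 being lost (adjusted p = 0.0655), and 1 lower, and its all-gene split 4699 and 4633. The elf7-3 count became 7, PHYE being lost (adjusted p = 0.0676), and the all-gene split moved from 5972 higher and 3662 lower to 4868 and 4750. The genes called higher in every genotype were PHYA, PHYC, CRY1, CRY2, PHOT1, PHOT2 and UVR8. The share of all genes called higher in every genotype was not counted. The 3 warmth comparisons share no library, but each test used a spread estimated from all 18 libraries.

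**Figure D2:**
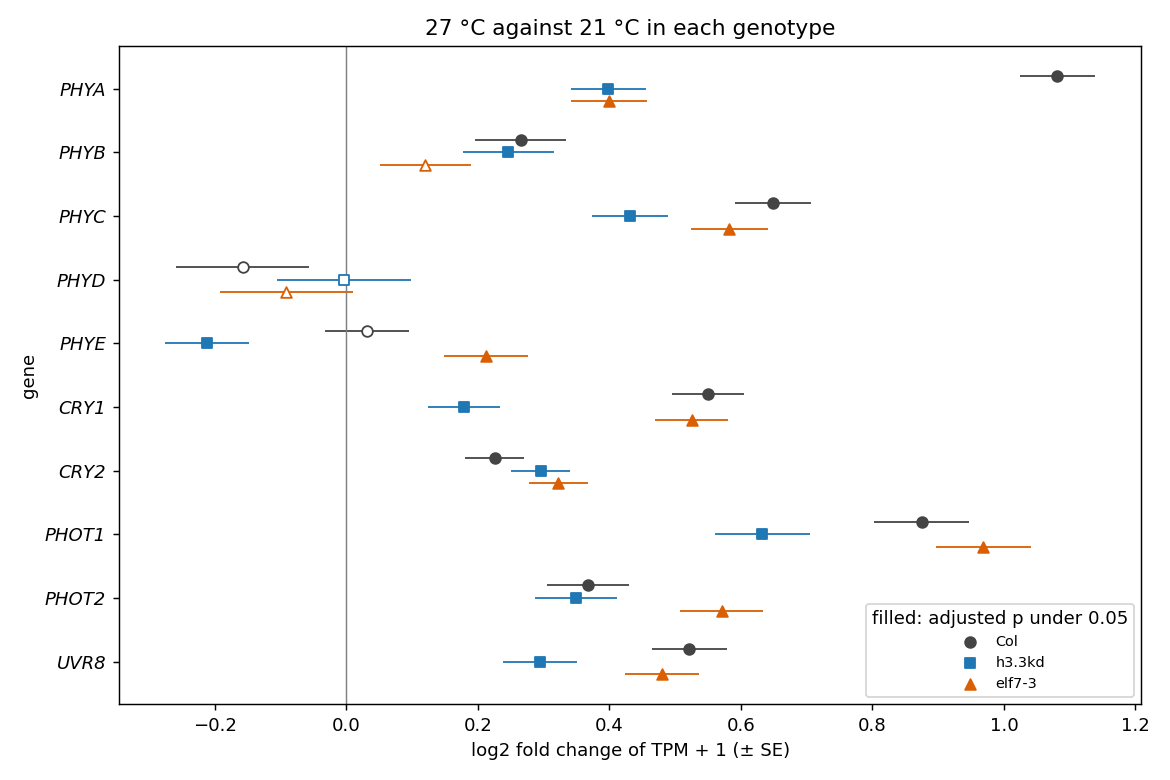
Log2 fold change of TPM + 1 at 27 °C against 21 °C (horizontal axis, ± SE from limma) for each photoreceptor gene (vertical axis) in Col, h3.3kd and elf7-3, 3 libraries per group, with filled symbols for an adjusted p under 0.05. PHYA stands at 1.08 in Col and at 0.40 in both mutants, whereas PHOT1 is at or above 0.63 in all 3 genotypes.

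The difference in warmth response was tested for each gene as an interaction, the mutant's log2 change minus that of Col. PHYA had a smaller rise in both mutants: the difference was -0.68 ± 0.081 for h3.3kd (adjusted p = 2.63e-05) and -0.68 ± 0.081 for elf7-3 (adjusted p = 8.73e-05). Leaving out any 1 library kept it between -0.73 and -0.63 for h3.3kd and between -0.72 and -0.63 for elf7-3. CRY1 had a smaller rise in h3.3kd (-0.37 ± 0.078, adjusted p = 0.00317), and its difference in elf7-3 was -0.02 ± 0.078 (adjusted p = 0.889). These were the only calls among the 10 genes: 2 for h3.3kd, where 18.4% of all genes were called in either direction, and 1 for elf7-3, where 7.25% were. As counts they lie near these shares. Both interactions use the same 6 Col libraries.

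For 4 further genes the h3.3kd difference missed the threshold and passed it in the few other fits listed here. It stayed above the threshold in all the rest. With 1 library left out, limma's adjusted p went as high as 0.136 for UVR8, 0.217 for PHOT1, 0.178 for PHYC and 0.168 for PHYE. UVR8 (-0.23, adjusted p = 0.0572) passed with only the groups compared (0.0303), with library weights (0.0268) and without Col replicate 1 at 27 °C (0.0379). PHOT1 (-0.24, adjusted p = 0.108) passed with library weights (0.0444) and without h3.3kd replicate 2 at 21 °C (0.0436). PHYC (-0.22, adjusted p = 0.0761) passed without h3.3kd replicate 3 at 21 °C (0.0487) or replicate 2 at 27 °C (0.0331), and PHYE (-0.24, adjusted p = 0.0693) without replicate 3 at 27 °C (0.0392). Together with PHYA and CRY1 these 6 genes had a lower warmth response in h3.3kd than in Col by value, while PHYB (-0.02), PHOT2 (-0.02), CRY2 (0.07) and PHYD (0.15) lay near or above 0. The median difference over all genes was -0.03, and the 4 further genes stood at percentiles 23.2 to 25.9 of all genes.

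At 21 °C h3.3kd differed from Col in 5 of the 10 genes, with PHYA higher and PHYB, PHYC, PHYE and CRY1 lower. Of all genes, 12.7% were called higher and 20.8% lower, and the median over the 10 genes was -0.05, equal at 2 decimals to that over all genes. PHYA was higher by 0.22 ± 0.057 (adjusted p = 0.00754), with all 3 h3.3kd libraries above all 3 of Col. PHYC was lower by value in every library, at 29.5, 30.1 and 27.5 TPM (-0.31 ± 0.058), and so was PHYE, at 22.8, 23.7 and 24.8 TPM (-0.30 ± 0.064). PHYB stood at 33.7, 40.6 and 38.2 TPM (-0.21 ± 0.069, adjusted p = 0.0231), a call lost without Col replicate 1 (0.0621) or 2 (0.0544), without h3.3kd replicate 1 (0.142), or with median-of-ratios scaling (0.056). CRY1 (-0.17 ± 0.055, adjusted p = 0.0248) was lost without Col replicate 1 or 2 or h3.3kd replicate 1 or 3 (0.055 to 0.107) and with that scaling (0.153). Under that scaling 2 genes, PHYA and CRY2, were higher and 2, PHYC and PHYE, lower, and the split of all genes became 3330 higher and 3273 lower.

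At 27 °C h3.3kd differed from Col in 9 of the 10 genes, 2 higher and 7 lower, against 20.2% and 31.6% of all genes, with a median of -0.29 against -0.07. The libraries of 9 of the 10 genes did not overlap between genotypes, against 57.3% of all genes. CRY1 was lower by 0.54 ± 0.055, PHYE by 0.54 ± 0.064, PHYC by 0.53 ± 0.058, PHYA by 0.47 ± 0.057 and PHOT1 by 0.35 ± 0.072 on the log2 scale. PHYA was thus above Col in the cool and below it in the warm, at 156 to 167 TPM against 215 to 239 TPM. PHYD, the least abundant member, was higher, at 16.1, 16.8 and 18.8 TPM against 12.8, 12.3 and 14.7 TPM (0.35 ± 0.10, adjusted p = 0.0074), and CRY2 was higher by 0.15 ± 0.045, at 184, 187 and 188 TPM against 165, 169 and 169 TPM. PHYB (-0.23 ± 0.069) lost its call with median-of-ratios scaling (adjusted p = 0.0689) and without h3.3kd replicate 1 at 27 °C (0.0601), and UVR8 (-0.22 ± 0.057) with that scaling (0.0875). PHOT2, at 77.9 to 83.8 TPM against 74.9 to 80.9 TPM, overlapped with Col and was not called (0.08 ± 0.063), but passed with that scaling (0.0301). The split was then 3 higher and 5 lower, and that of all genes 5373 and 4919.

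elf7-3 at 21 °C was lower than Col in 5 of the 10 genes and higher in none, against 15.4% of all genes lower and 13.3% higher, with a median of -0.17 against -0.01. The phototropins had the largest differences. PHOT1 was at 65.9, 56.3 and 55.4 TPM against 84.9, 86.6 and 81.8 TPM in Col (-0.51 ± 0.072, adjusted p = 5.60e-05), and PHOT2 at 49.7, 45.0 and 47.9 TPM against 61.4, 62.8 and 54.6 TPM (-0.32 ± 0.063, adjusted p = 0.00101). Every elf7-3 library was below every Col library for both genes. The other 3 calls each depended on single libraries. PHYB (-0.24 ± 0.069) lost it without elf7-3 replicate 2 (adjusted p = 0.0813), PHYA (-0.19 ± 0.057) without Col replicate 1 (0.101) or elf7-3 replicate 3 (0.0657), and CRY2 (-0.16 ± 0.045) without Col replicate 1 (0.0619).

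At 27 °C elf7-3 was again lower in 5 genes and higher in none, against 18.5% and 16.4% of all genes, with a median of -0.15 against -0.01. PHYA had the largest difference of the 10, at 126, 123 and 115 TPM against 215, 215 and 239 TPM in Col (-0.87 ± 0.057, adjusted p = 1.17e-08), at percentile 2.0 of all genes. PHOT1 (-0.42 ± 0.072), PHYB (-0.38 ± 0.069) and PHYC (-0.22 ± 0.058) were lower too. PHYB stood at 38.1, 41.7 and 40.7 TPM against 52.5, 52.5 and 52.6 TPM, with no overlap. CRY1 (-0.16 ± 0.055, adjusted p = 0.0319) lost its call with median-of-ratios scaling (0.081), with only the groups compared (0.0687), and without Col replicate 2 (0.0881) or 3 (0.0805) or elf7-3 replicate 2 (0.15) or 3 (0.0685). PHYE was higher by value, at 32.0 to 35.3 TPM against 29.9 to 30.3 TPM (0.16 ± 0.064, adjusted p = 0.061), and passed with that scaling (0.0279) and without elf7-3 replicate 3 (0.0498). PHYD, CRY2, PHOT2 and UVR8 were not called.

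**Figure D3:**
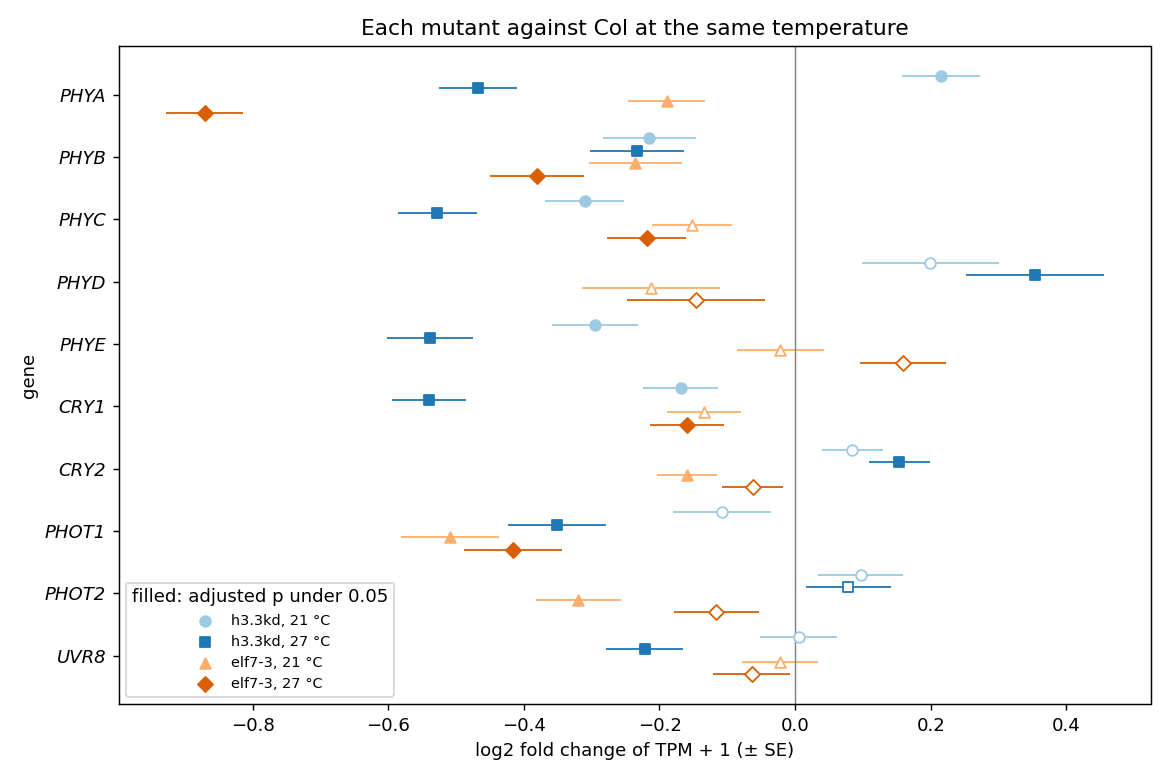
Log2 fold change of TPM + 1 of each mutant against Col at the same temperature (horizontal axis, ± SE from limma) for each photoreceptor gene (vertical axis), 3 libraries per group, with filled symbols for an adjusted p under 0.05. At 27 °C elf7-3 stands at -0.87 for PHYA, while h3.3kd stands at -0.54 for CRY1 and PHYE and at 0.35 for PHYD.

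The comparisons with Col share its libraries, so the mutants were also compared with each other. At 21 °C h3.3kd was higher than elf7-3 in 5 of the 10 genes and lower in 2, against 19.3% and 25.9% of all genes. PHOT2 (0.42 ± 0.063), PHYD (0.41 ± 0.10), PHYA (0.40 ± 0.057), PHOT1 (0.40 ± 0.072) and CRY2 (0.24 ± 0.045) were higher. PHYE was lower (-0.27 ± 0.064), and so was PHYC (-0.16 ± 0.058, adjusted p = 0.0353), whose call was lost without any 1 of 5 of the 6 libraries (adjusted p of 0.0531 to 0.147), with median-of-ratios scaling (0.082) and with only the groups compared (0.0742).

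At 27 °C h3.3kd was higher than elf7-3 in 4 genes and lower in 4, against 21.6% and 31.6% of all genes. With median-of-ratios scaling the split was 5 higher and 3 lower, and that of all genes 5409 and 5335. PHYE had the widest difference of the 10, at 19.0, 20.5 and 21.8 TPM in h3.3kd and 35.3, 33.8 and 32.0 TPM in elf7-3 (-0.70 ± 0.064, adjusted p = 7.18e-08), and every h3.3kd library was below every elf7-3 library. PHYD went the other way, at 16.1, 16.8 and 18.8 TPM against 10.7 to 13.0 TPM (0.50 ± 0.10). PHYA (0.40 ± 0.057) and CRY2 (0.22 ± 0.045) were higher in h3.3kd, and CRY1 (-0.38 ± 0.055) and PHYC (-0.31 ± 0.058) lower. PHOT1, which differed at 21 °C, did not at 27 °C by this test (0.06 ± 0.072), with overlapping libraries, and the change between temperatures was not tested. The calls of PHOT2 (0.19 ± 0.063, adjusted p = 0.0144) and UVR8 (-0.16 ± 0.057, adjusted p = 0.0259) were lost without elf7-3 replicate 3 (0.0511 and 0.0726), that of PHOT2 also without h3.3kd replicate 3 (0.0528), and that of UVR8 also without h3.3kd replicate 1 (0.0707) or 2 (0.057) or elf7-3 replicate 1 (0.146), with median-of-ratios scaling (0.243) and with only the groups compared (0.0777). PHYB (0.15 ± 0.069, adjusted p = 0.0816) passed with median-of-ratios scaling (0.0067), with organelle genes removed (0.0432) and without h3.3kd replicate 1 (0.022).

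Because TPM are corrected for length, levels of the phytochromes can be added. In Col they summed to 229 ± 9.04 TPM in the cool and 376 ± 15.7 TPM in the warm (SD, n = 3). It was 229 ± 7.65 and 283 ± 2.65 TPM in h3.3kd, and 203 ± 3.91 and 256 ± 6.41 TPM in elf7-3. PHYA made up 45.8% ± 0.892 of the sum in cool Col and 59.2% ± 1.19 in warm Col, against 45.2% ± 1.32 and 47.3% ± 1.14 in elf7-3. In h3.3kd its share was 53.1% ± 1.94 in the cool and 56.9% ± 2.41 in the warm. The level of PHYA was 2.41 ± 0.109 times that of PHYB in cool Col and 4.24 ± 0.256 times in warm Col, whereas in elf7-3 these ratios were 2.49 ± 0.151 and 3.03 ± 0.248. The sum, share and ratio are descriptions and were not tested.

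**Figure D4:**
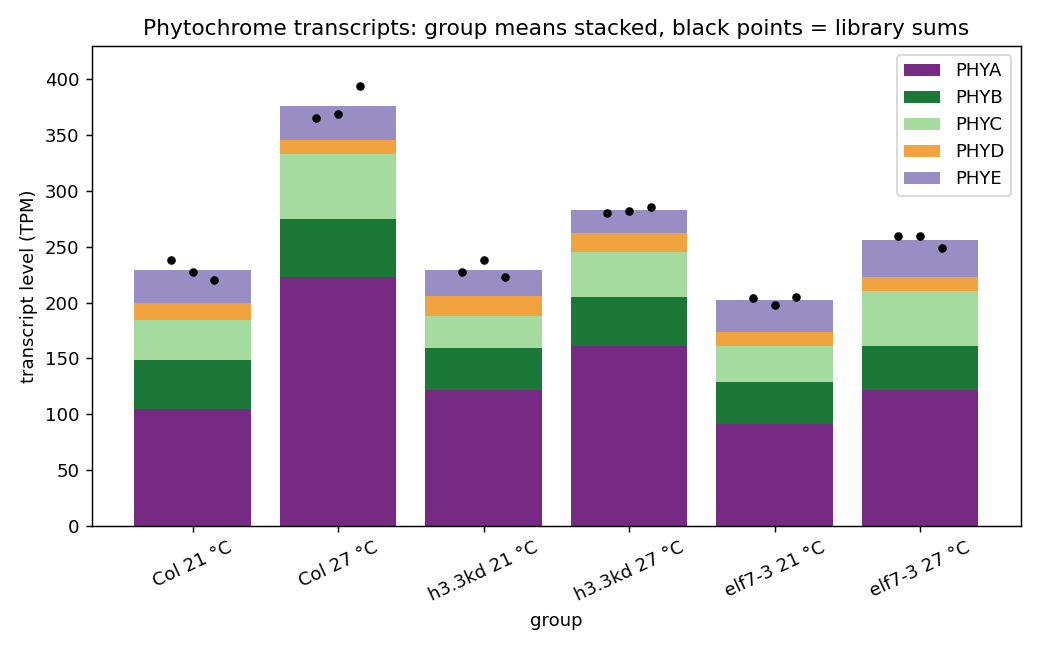
Group means of the levels of the 5 phytochrome genes in TPM, stacked (vertical axis from 0), for the 6 groups, with black points for the sum in each of 3 libraries. The PHYA segment grows from 105 to 223 TPM between cool and warm Col and from 91.7 to 121 TPM in elf7-3.

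Ratios within the blue-light receptors also differed between groups. CRY2 stood at 1.25 to 1.27 times CRY1 in the libraries of cool Col and at 0.998 to 1.01 times in warm Col, at 1.24 ± 0.0658 and 1.08 ± 0.0334 times in cool and warm elf7-3, and at 1.51 ± 0.0783 and 1.63 ± 0.0681 times in cool and warm h3.3kd (SD, n = 3). The ratio was lower in the warm in Col and elf7-3 and not in h3.3kd. PHOT1 stood at 1.42 ± 0.0675 times PHOT2 in cool Col and 2.02 ± 0.0216 times in warm Col. In h3.3kd this ratio was 1.23 ± 0.0469 and 1.5 ± 0.0645, and in elf7-3 1.24 ± 0.0849 and 1.64 ± 0.11. The sum of all 10 genes was 711 ± 24.6 TPM in cool Col, 1060 ± 29.4 in warm Col, 706 ± 1.53 and 887 ± 7.15 in h3.3kd, and 621 ± 14.5 and 866 ± 15.8 in elf7-3.

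Genes that act with the photoreceptors were counted from 6 lists holding 63 genes, of which 58 were tested. In Col warmth raised 23 and lowered 15 of the 58, against 32.9% and 22.1% of all genes, with a median log2 fold change of 0.08, the same at 2 decimals as over all genes. The 3 tested genes of bilin chromophore synthesis, which supply the light-absorbing group of phytochromes, all fell with warmth in all 3 genotypes, where 22.1% (Col), 19.7% (h3.3kd) and 18.3% (elf7-3) of all genes were called lower. HY2, phytochromobilin synthase, fell from 14.2 ± 1.89 to 7.82 ± 0.852 TPM in Col (-0.79), and by value as much in elf7-3 (-0.81) and less in h3.3kd (-0.61). HY1, the main haem oxygenase, changed by -0.27, -0.40 and -0.35 in Col, h3.3kd and elf7-3, and HO2 by -0.38, -0.37 and -0.31. HO3 and HO4 did not pass the filter.

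Of 18 tested phytochrome partners, warmth in Col raised 4 and lowered 5, against 32.9% and 22.1% of all genes, so the counts lie near the background. PKS4, a phosphorylation target of PHOT1 in phototropism, rose from 1.51 ± 0.254 to 18.9 ± 2.94 TPM in Col (2.98), and by 2.17 in h3.3kd and 1.82 in elf7-3. Its response was smaller in elf7-3 than in Col by the interaction test (-1.16), and also in h3.3kd (-0.81, adjusted p = 0.0103), the latter not with a pseudocount of 0.1. HMR, needed for the nuclear photobodies of phytochromes, fell from 84.6 ± 1.78 to 40.5 ± 1.08 TPM in Col (-1.04). FHL, which with FHY1 carries PHYA into the nucleus, was lower in elf7-3 than in Col, at 0.955 ± 0.339 against 2.86 ± 0.930 TPM at 21 °C (-0.97) and 1.44 ± 0.0984 against 5.88 ± 1.03 TPM at 27 °C (-1.49).

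Of 8 tested cryptochrome partners, warmth in Col raised 5 and lowered 3, against 32.9% and 22.1% of all genes. SPA1, the COP1 partner bound by both cryptochromes and phytochromes, rose from 16.0 ± 0.975 to 33.3 ± 1.3 TPM in Col (1.01). It rose by 0.93 in h3.3kd and by 0.50 in elf7-3, a smaller response than in Col by the interaction test (-0.51). CIB5, a bHLH factor bound by CRY2, was lower in h3.3kd than in Col, at 3.25 ± 1.36 against 6.58 ± 0.358 TPM at 21 °C (-0.88) and 1.71 ± 0.379 against 4.47 ± 1.02 TPM at 27 °C (-1.01).

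Of 13 phototropin partners, warmth in Col raised 10 and lowered 2, against 32.9% and 22.1% of all genes, with a median of 0.27 against 0.08 over all genes. THRUMIN1 and JAC1, both of chloroplast movement, rose by 1.36 and 1.14, and RPT2, a PHOT1-binding protein of phototropism, by 0.75. In elf7-3, where PHOT1 was also lower, 8 of the 13 were lower than in Col at 21 °C, against 15.4% of all genes, and 9 at 27 °C, against 18.5%. At each temperature 1 was higher, against 13.3% and 16.4% of all genes. The medians were -0.35 and -0.37, against -0.01 over all genes at each temperature. THRUMIN1 was at 6.22 ± 1.93 TPM in elf7-3 and 15.5 ± 1.13 TPM in Col at 21 °C (-1.23), PMI2 at 11.8 ± 1.38 against 21.4 ± 1.01 TPM (-0.82), and KAC1 at 23.6 ± 2.27 against 40.8 ± 2.26 TPM (-0.77). All 3 take part in the movement of chloroplasts in light. In h3.3kd 2 were higher and 3 lower at 21 °C, against 12.7% and 20.8% of all genes, and 2 higher and 5 lower at 27 °C, against 20.2% and 31.6%. The comparisons of both mutants share the Col libraries, and the list was chosen with earlier results of these data known.

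**Figure D5:**
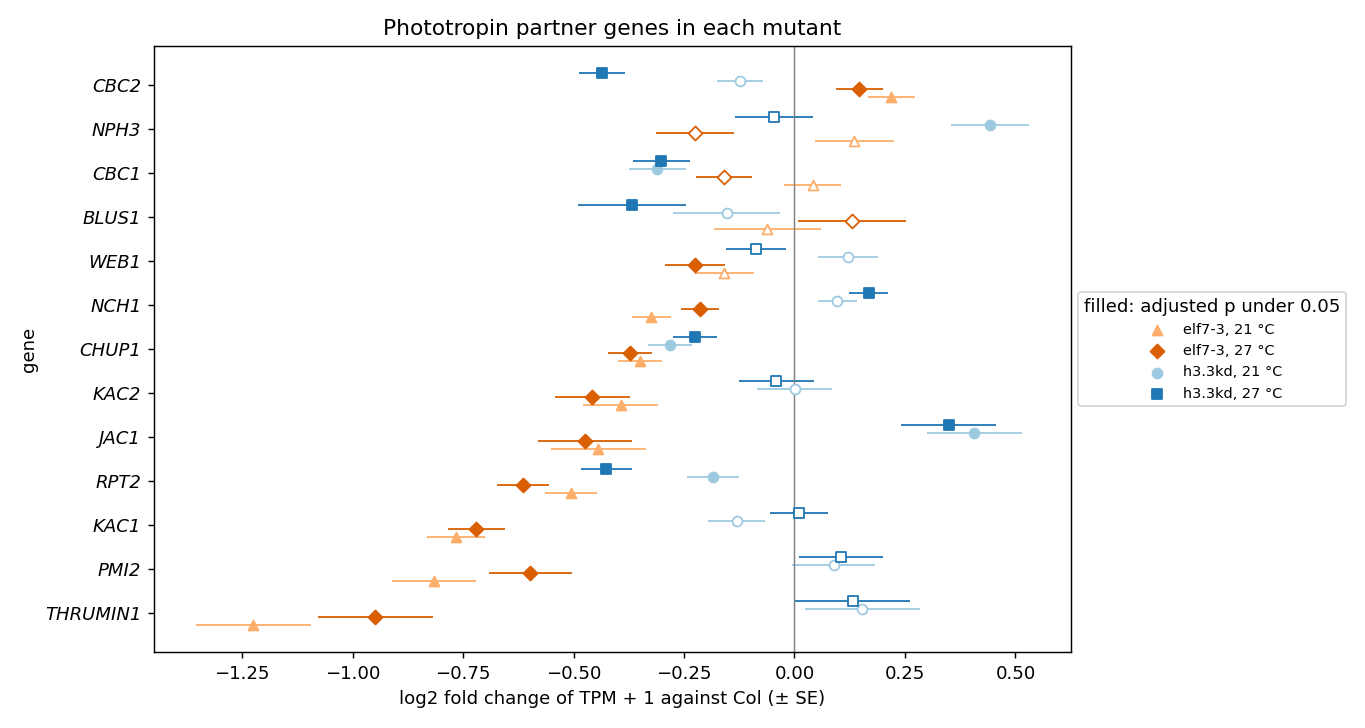
Log2 fold change of TPM + 1 against Col (horizontal axis, ± SE from limma) for 13 phototropin partner genes (vertical axis, ordered by the value in elf7-3 at 21 °C), with filled symbols for an adjusted p under 0.05. THRUMIN1 stands at -1.23 and -0.95 in elf7-3 at 21 and 27 °C.

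Of 9 tested genes of the UVR8 pathway, warmth in Col raised none and lowered 2, against 32.9% and 22.1% of all genes, so the count of falls is at the background. The 2 were HY5 (-0.80) and HYH (-0.53), both bZIP factors downstream of the receptor. CHS, the first enzyme of flavonoid synthesis, was higher in h3.3kd than in Col, at 173 ± 2.41 against 82.5 ± 8.94 TPM at 21 °C (1.06) and 148 ± 27.9 against 73.1 ± 8.15 TPM at 27 °C (1.0). In elf7-3 at 21 °C it was lower, at 39.3 ± 4.08 TPM (-1.05), and its warmth response there was larger than in Col (interaction 1.14). Of 7 relatives in the LOV and photolyase families, 4 rose with warmth in Col and none fell, against 32.9% and 22.1% of all genes. In h3.3kd 3 rose and 2 fell, against 26.1% and 19.7%, and in elf7-3 4 rose and none fell, against 29.8% and 18.3%. FKF1, a blue-light receptor of the flowering clock, rose in Col from 12.6 ± 2.1 to 24.9 ± 1.99 TPM (0.94).

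Organ markers also moved with genotype and temperature. The summed level of the 4 green tissue markers was 27199 to 30541 TPM in cool and 23189 to 25797 TPM in warm Col, 32586 to 37186 and 29575 to 32473 TPM in h3.3kd, and 22637 to 26076 and 18890 to 20871 TPM in elf7-3. The members did not all move alike. Warmth in Col raised 2 of these 4 and lowered 2, against 32.9% and 22.1% of all genes. In h3.3kd it raised 2 and lowered 1, against 26.1% and 19.7%. In elf7-3 it raised 1 and lowered 2, against 29.8% and 18.3%. Against Col, 2 of these 4 were called higher in h3.3kd at 21 °C and 3 at 27 °C, against 12.7% and 20.2% of all genes. In elf7-3, 2 were called lower at each temperature, against 15.4% and 18.5% of all genes, with 1 higher at 21 °C, against 13.3%. The 6 root markers (PIN2, CASP1, MYB36, PHT1;1, NRT2.1 and EXPA7), of which 5 were tested, summed to 90.8 to 98.9 TPM in cool and 163 to 178 TPM in warm Col, to 86.8 to 104 and 138 to 172 TPM in h3.3kd, and to 171 to 190 and 169 to 202 TPM in elf7-3. Of the 5 tested, warmth raised 3 and lowered 0 in Col, 3 and 2 in h3.3kd, and 1 and 1 in elf7-3. The shares of all genes were those given for warmth above. Against Col, h3.3kd had 1 higher and 1 lower at 21 °C, against 12.7% and 20.8% of all genes. At 27 °C it had 1 higher and 3 lower, against 20.2% and 31.6%. For elf7-3 these were 3 and 0 at 21 °C, against 13.3% and 15.4%, and 2 and 1 at 27 °C, against 16.4% and 18.5%. NRT2.1 was at 0 in every cool h3.3kd library and at most 1.06 TPM in any library. The 4 seed markers (SESA1, CRA1, OLEO1 and EM1) summed to 50.3 to 84.3 TPM in cool and 51.2 to 85.6 TPM in warm Col. These sums were 45.6 to 67.0 and 94.2 to 128 TPM in h3.3kd, and 39.4 to 49.7 and 54.8 to 71.1 TPM in elf7-3. Warm h3.3kd was thus above every other group. Against Col at 27 °C, 1 of the 4 was called higher in h3.3kd and 0 lower, against 20.2% and 31.6% of all genes. For 2 of the 4 the warmth response of h3.3kd was called above Col's, and for 0 below. The share of all genes called in either direction was 18.4%. The part of organ markers in the differences of the photoreceptor genes was not tested.

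For the 3 photoreceptor genes with the widest range of group means, the genes whose log2(TPM + 1) ran most alike over the 18 libraries were listed by Pearson's r, as a description without a test, since libraries of a group share genotype and temperature. For PHOT1 these were CH1, chlorophyllide a oxygenase (r = 0.98), CLA1, the first enzyme of plastid isoprenoid synthesis (0.98), and AT1G19720 (0.98). For PHYA they were AT5G06970 (0.97), AT3G08670 (0.96) and AT5G13980 (0.96), and for PHYC AT3G49790 (0.98), CER9 (0.98) and CYP71B5 (0.98).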

How the data were processed

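The deposited table holds TPM, computed by the authors before deposit, 1 column per library, each summing to 1000000 over 27655 genes that include 88 chloroplast and 122 mitochondrial genes. Per the submitters' processing notes the tools were fastp 0.20.1, HISAT2 2.1.10, HTSeq 0.11.2 and DESeq2 1.26.0, named without roles, and the build was TAIR10. The row names carry Araport 11.447. How TPM and gene lengths were obtained, read length and strand are not given in the sources used here. All columns matched 1 library each, and 0 were left unmapped.

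The 20048 genes that reached 1 TPM in 3 or more libraries were analysed as log2(TPM + 1). A linear model in limma 3.58.1 (R 4.3.3) gave each group its own mean and used a mean-dependent prior, with 12 residual degrees of freedom. Adjusted p-values are Benjamini-Hochberg over all kept genes of a comparison, two-sided, with calls under 0.05, in 11 comparisons. Fold changes on this scale shrink for genes at low levels. The 10 receptors and the lists of partners were chosen with earlier results of these data known. Of each list, up to 3 called genes with the largest change per comparison could be named. The script was tested on simulated data. Alternatives were median-of-ratios scaling, a pseudocount of 0.1, a replicate block, library weights, no filter or one of 5 TPM, fits to the compared groups alone, fits without organelle genes, and fits without 1 library at a time. Sequences and coordinates are from RefSeq's TAIR10.1, in which all 10 loci were found. Tables were handled in Python 3.11.15 (pandas 2.3.3, numpy 2.4.6) and drawn with matplotlib 3.10.9.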

Additional observations from a re-analysis of the deposited data

Results flagged for a closer look

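For 3 results the warmth response of a mutant differed from that of Col by limma's interaction test, the mutant's log2 change minus Col's. These are 2 of the 10 genes for h3.3kd, against 18.4% of all genes, and 1 for elf7-3, against 7.25%. As counts they lie near the background. PHYA had differences of -0.683 in h3.3kd and -0.681 in elf7-3, with a rise in 3 of 3 warm libraries over every cool one in each genotype. CRY1 had a difference of -0.371 in h3.3kd. All 3 stayed called in every alternative fitted, with adjusted p between 2.05e-05 and 4.56e-04 for PHYA and between 0.0029 and 0.0112 for CRY1 when 1 library was left out. Groups of 3 libraries were too small for a search for single outlying libraries.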

How the results depend on the processing

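Of the 110 results of 10 genes in 11 comparisons, 67 were called, and 52 of these kept their call and direction in every alternative fitted. Over the 1660 alternative values of these results, 1597 kept their side of the threshold, 48 lost a call, 15 gained one and 0 changed sign with a call. The number of photoreceptor genes called ranged from 3 to 5 when single libraries were left out for h3.3kd against Col at 21 °C (3 without Col replicate 1 or 2 or h3.3kd replicate 1) and from 3 to 5 for elf7-3 against Col at 21 °C (3 without Col replicate 1). Counts over all genes fell as well, to between 5297 and 6034 in place of 6725 for h3.3kd and to between 4454 and 5013 in place of 5751 for elf7-3. With library weights, 4 genes in place of 2 had a different warmth response in h3.3kd, PHOT1 and UVR8 being added. Calls over all genes rose too, from 3689 in either direction to 2077 above and 2328 below the response of Col. Fits that left out a library had fewer libraries, whereas the weighted fit kept all 18. The cause of these changes was not tested. With a replicate block no count of photoreceptor genes changed (8 in Col, 9 in h3.3kd and 8 in elf7-3 for warmth), and 3447 in place of 3689 genes were called for the h3.3kd interaction. Libraries of the same number did not vary together (median r of -0.0149 over 45 pairs, 6 of 18 libraries closest to their own number). With 3 libraries a group, this cannot tell whether the numbers mark a shared batch. Of 151 results of partner genes that could be named, 128 kept their call throughout. TPM without stated gene lengths keep no exact depth, so counting error could not be separated from the spread between libraries.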

Other observations

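UVR3, the photolyase that repairs (6-4) photoproducts and a relative of the cryptochromes, differed from Col in opposite directions in the mutants. Its level was 33.9, 36.2 and 36.7 TPM in cool Col, 15.8, 17.6 and 17.9 TPM in cool h3.3kd and 77.4, 98.4 and 99.3 TPM in cool elf7-3. Against Col the log2 fold changes of h3.3kd were -1.01 (cool) and -1.58 (warm), those of elf7-3 1.33 (cool) and 1.32 (warm), all called by limma. The direct comparison of h3.3kd with elf7-3 gave -2.35 at 21 °C and -2.90 at 27 °C. No library of one genotype overlapped with another at either temperature. The photolyase for cyclobutane dimers, PHR1, was not called in any of these comparisons (0.46 and 0.28 in h3.3kd and 0.22 and -0.15 in elf7-3, against Col at 21 and 27 °C).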
